A study of Mus musculus with 12 samples.

Results

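The TGF-beta superfamily genes described here are 10 mouse genes, namely the ligands *Gdf3*, *Gdf15*, *Inhba* and *Tgfb1*, the receptors *Tgfbr1* and *Tgfbr2*, the signal transducer *Smad3*, the inhibitors *Smad7* and *Skil*, and *Tgfbi*, a matrix gene named for its induction by TGF-beta. They were taken by symbol from the 43280 genes of the deposited expression table and were proposed with the results of these data known, so their levels and differences are given as a description, without p-values. RNA came from bone marrow-derived macrophages (BMDM), which are macrophages grown from mouse marrow with the growth factor M-CSF, of wild type (wt) and *Treml4*-/- mice, both of C57BL6 background. *Treml4* encodes a receptor of the TREM family, and the *Treml4*-/- mice lack it in every cell, so that the marrow donors differed as whole animals and not only in their macrophages. The M0 cells were left unstimulated, with PBS as vehicle. M1 cells were exposed to 100 ng/ml of the bacterial cell wall component lipopolysaccharide (LPS), which brings macrophages into an inflammatory state, for 8 h (M1-8 h) or 12 h (M1-12 h). Each of the 6 conditions had 2 biological replicates, which gave 12 libraries. The age and sex of the mice that gave these cultures are not given in the sources used here. Neither is it said how many animals went into a replicate, so the p-values below measure the spread between these libraries.

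Ligands of the superfamily are dimers that bring together type I and type II receptor kinases, and the type I kinase then phosphorylates Smad proteins that enter the nucleus and act on target genes. *Tgfbr2* and *Tgfbr1* are the type II and type I receptors of TGF-beta, and *Smad3* carries the signal of TGF-beta and of activins. *Smad7* blocks the type I receptor and *Skil* (SnoN) represses Smad target genes, and both are known as feedback inhibitors that the pathway itself induces. In macrophages, TGF-beta is known for restraining inflammatory gene expression, and activin A, the dimer encoded by *Inhba*, is known as a product of LPS-stimulated myeloid cells.

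Between 48008751 and 58500792 reads were counted on genes per library, so that 1 read was worth 0.0171 to 0.0208 CPM, the read count scaled to library size. *Treml4* had 198 to 663 reads in the 6 wt libraries and 0 in the 6 *Treml4*-/- libraries, which allows up to 0.0513 to 0.0625 CPM at 3 reads per library. The macrophage markers, 7 of 8 of which were measured, summed to 18875 to 25804 CPM at M0 and 8398 to 11633 CPM after LPS. Their sum was higher in wt than in *Treml4*-/- libraries at each time without overlap (21266 to 25804 against 18875 to 19125 CPM at M0, 10344 to 11633 against 8739 to 9367 CPM at 8 h, 8839 to 9514 against 8398 to 8666 CPM at 12 h). *Lyz2*, the largest part of this sum, and *Cd14* were also higher in wt at each time without overlap. By contrast, *Itgam* and *Mertk* at 8 h and *Csf1r* at 12 h were higher in *Treml4*-/- libraries without overlap. *Csf1r*, *Cd68* and *Lyz2* were lower in every LPS library than in every M0 library. *Itgam*, *Fcgr1* and *Mertk* were higher in every LPS library, and *Cd14* overlapped. The 5 T and NK cell markers summed to at most 0.0771 CPM. The fibroblast and stromal list summed to 1.08 to 5.57 CPM, with the highest sum in wt M0 replicate 1. The granulocyte list, at 37.4 to 123 CPM, was lowest in wt M0 replicate 2, and at 8 h it was lower in wt (60.1 to 64.7 CPM) than in *Treml4*-/- libraries (74.1 to 94.9 CPM). Of its genes, *S100a8*, *S100a9* and *Elane* were lower in wt at 8 h without overlap, and *Mpo*, *Camp*, *Ltf* and *Ly6g* overlapped. The dendritic list (0.688 to 1.28 CPM at M0, 15.2 to 29.5 CPM after LPS) and the endothelial list (7.06 to 9.43 CPM at M0, 97.3 to 272 CPM after LPS) were higher after LPS, and the B cell list was lower (4.39 to 6.48 CPM at M0, 0.204 to 0.686 CPM after LPS). Of the 5 dendritic markers, *Ccr7*, *Xcr1* and *Clec9a* were higher in every LPS library than in every M0 library. *Flt3* was lower in every LPS library, and *Zbtb46* overlapped. Of the 4 endothelial markers, *Kdr*, *Pecam1* and *Cdh5* were higher in every LPS library than in every M0 library, and *Tek* reached at most 0.0187 CPM. The part of these lists in the LPS and genotype results was not tested. In bulk RNA, fewer cells of a type and less RNA per cell cannot be told apart.

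Differences are given on the log2(CPM + 1) scale from limma, with a standard error (SE) that rests on the spread between replicates over all 12 libraries. A gene was called a differentially expressed gene (DEG) where the Benjamini-Hochberg adjusted p over 12086 tested genes was under 0.05 and the levels differed at least 1.4-fold. LPS changed the make-up of the libraries: the 100 most abundant genes took 27.9 to 30.4% of the reads at M0 and 32.4 to 37.3% after LPS. On CPM the median gene was lower after LPS, by -0.72 (log2) at 8 h and -0.76 at 12 h. Median of ratios scaling, which centres libraries on their typical gene, moved these medians by 0.69 and 0.72, and its value is given in parentheses or by name beside the LPS differences on CPM below. It also moved the split of calls among all genes at 8 h from 2070 higher and 7225 lower to 3753 and 3778, and at 12 h from 1965 and 7284 to 3940 and 3927.

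**Figure D1:**
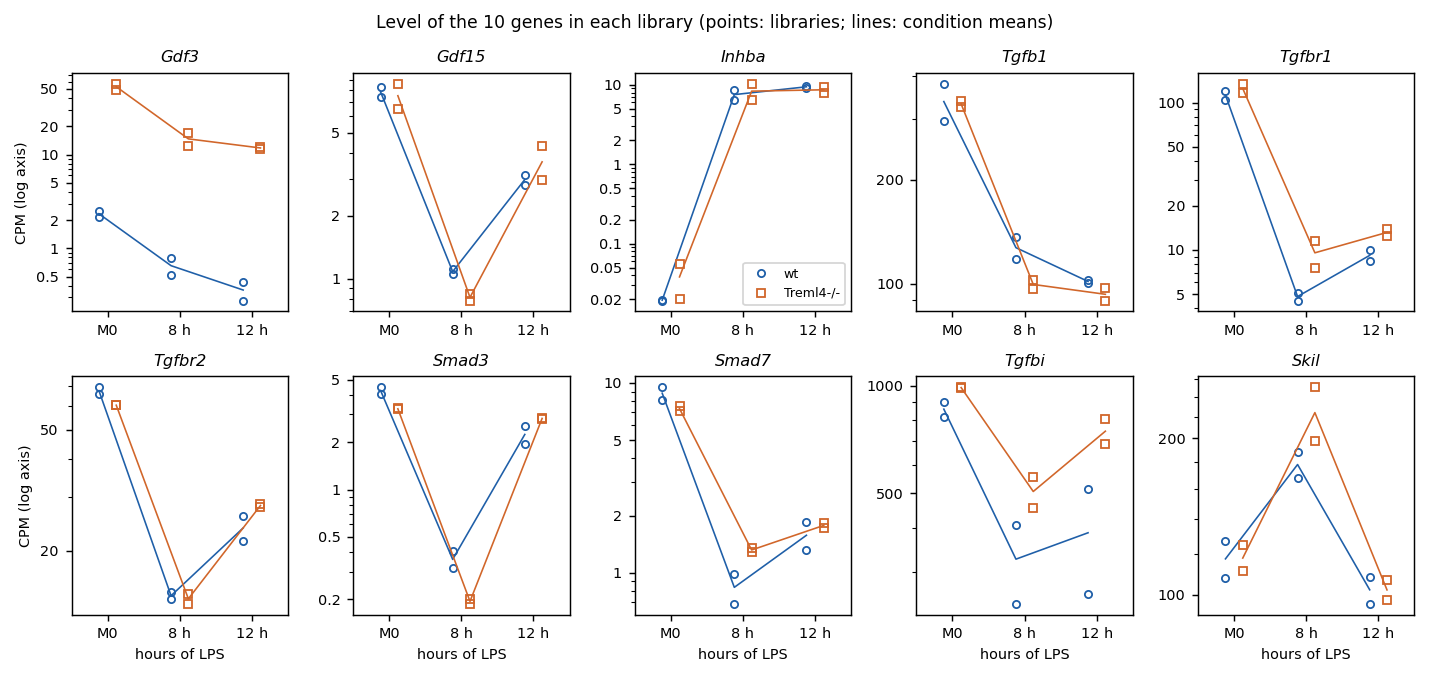
CPM (log axis, scaled separately for each gene) of the 10 genes at M0 and after 8 h and 12 h of LPS, with wt as circles, *Treml4*-/- as squares, 1 point per library and lines through the condition means. The genotypes stand apart at all 3 times for *Gdf3* (at most 2.51 CPM in wt and at least 11.5 CPM in *Treml4*-/-), *Inhba* is near 0 at M0, and the receptors, *Smad3* and *Smad7* are lowest at 8 h.

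*Gdf3*, a ligand known from the early embryo and from adipose tissue (chromosome 6, 122605403 to 122610087, minus strand, mm10), was the member with the largest genotype difference. At M0 it had 2.51 and 2.16 CPM in wt and 56.4 and 49.2 CPM in *Treml4*-/- cells. It had, at M1-8 h, 0.787 and 0.520 CPM in wt and 17.1 and 12.2 CPM in *Treml4*-/- cells. At M1-12 h the values were 0.441 and 0.278 CPM in wt and 12.0 and 11.5 CPM in *Treml4*-/- cells. Every *Treml4*-/- library was above every wt library, whatever the time, so the order of the 6 condition means ran through the *Treml4*-/- conditions first, and no neighbours in it overlapped. The *Treml4*-/- mean was 22.6 times the wt mean at M0, and after LPS it was 22.5 times (8 h) and 32.7 times (12 h) the wt mean. On the log2 scale, wt minus *Treml4*-/- was -4.01 ± 0.16 (SE) at M0 and -3.23 ± 0.16 at either time of LPS. The wt level at 12 h rested on 23 and 14 reads.

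*Gdf3* was lower after LPS in both genotypes. The M0 mean was 3.57 times the M1-8 h mean in wt and 3.60 times in *Treml4*-/- cells. At 12 h the factors were 6.50 and 4.5. The difference between the LPS responses (wt minus *Treml4*-/-) was 0.78 ± 0.23 at 8 h and at 12 h with the pseudocount of 1 CPM, but 0.00 and -0.53 with limma voom on the reads. A pseudocount of 1 CPM understates differences between levels under 1 CPM, such as those of wt after LPS. Over both genotypes the LPS difference was -1.4 ± 0.11 at 8 h (median of ratios, -0.79) and -1.69 ± 0.11 at 12 h (-1.05).

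*Gdf15*, a stress-induced ligand (chromosome 8, 70629393 to 70632456, minus strand), was lowest at 8 h in both genotypes and partly back at 12 h. It had 7.44 and 8.28 CPM in wt and 6.50 and 8.57 CPM in *Treml4*-/- cells at M0. After 8 h of LPS it had 1.05 and 1.11 CPM in wt and 0.786 and 0.842 CPM in *Treml4*-/- cells, and at M1-12 h 2.82 and 3.16 CPM in wt and 2.96 and 4.30 CPM in *Treml4*-/- cells. Genotypes overlapped at M0 and M1-12 h and did not at M1-8 h, where the wt mean was 1.33 times the *Treml4*-/- mean. The LPS difference was -2.16 ± 0.11 at 8 h (median of ratios, -1.54) and -1.02 ± 0.11 at 12 h (-0.31). Between the LPS times *Gdf15* differed by 1.14 ± 0.11 (median of ratios, 1.23).

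*Inhba*, the activin A subunit (chromosome 13, 16011851 to 16031621, plus strand), was nearly silent at M0 and present in every LPS library. At M0 it had 1 and 1 reads in wt and 1 and 3 reads in *Treml4*-/- cells. The M1-8 h libraries had 6.36 and 8.71 CPM in wt and 6.43 and 10.2 CPM in *Treml4*-/- cells, and at M1-12 h 9.17 and 9.73 CPM in wt and 9.37 and 7.95 CPM in *Treml4*-/- cells. Every LPS library was above every M0 library, and the genotypes overlapped at both LPS times. All M0 libraries together held 6 reads against 1719 at M1-8 h and 1876 at M1-12 h, which is a ratio of 272 (95% counting interval 124 to 741) and 308 (141 to 841) per read counted. These intervals reflect counting error alone. Neighbouring conditions of the order overlapped throughout the LPS libraries. In wt both M1-12 h libraries were above both M1-8 h libraries, while in *Treml4*-/- cells the LPS times overlapped. *Inhba* is also the member that passed the filter on low values through its LPS libraries alone. The annotation places a processed pseudogene (*B230303A05Rik*) and an antisense gene (*Gm48444*) on the opposite strand of *Inhba*, and whether the counting used strand is not stated in the sources used here.

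*Tgfb1*, the TGF-beta ligand of leukocytes (chromosome 7, 25687002 to 25705077, plus strand), had 295 and 378 CPM in wt and 337 and 325 CPM in *Treml4*-/- cells at M0. It had 118 and 136 CPM in wt and 103 and 96.5 CPM in *Treml4*-/- cells at M1-8 h. At M1-12 h it had 100.5 and 103 CPM in wt and 89.4 and 97.0 CPM in *Treml4*-/- cells. All LPS libraries were below all M0 libraries, and wt was above *Treml4*-/- without overlap at both LPS times, by 1.28 times at M1-8 h and 1.09 times at M1-12 h. The LPS difference was -1.56 ± 0.08 at 8 h (median of ratios, -0.76) and -1.76 ± 0.08 at 12 h (-0.92). In the order of its 6 conditions, the lower 3 (wt M1-12 h, *Treml4*-/- M1-8 h and *Treml4*-/- M1-12 h) overlapped with their neighbours.

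Both TGF-beta receptors were lowest at 8 h and higher again at 12 h. *Tgfbr1* (chromosome 4, 47353222 to 47414931, plus strand) had 121 and 104 CPM in wt and 116 and 134 CPM in *Treml4*-/- cells at M0. It had 4.52 and 5.11 CPM in wt and 7.56 and 11.5 CPM in *Treml4*-/- cells at M1-8 h. At M1-12 h it had 9.99 and 8.34 CPM in wt and 13.9 and 12.4 CPM in *Treml4*-/- cells. The 4 M0 libraries lay far above all LPS libraries, and after LPS the *Treml4*-/- libraries lay above the wt libraries of the same time. The M0 mean was 23.4 times the M1-8 h mean in wt and 13.1 times in *Treml4*-/- cells, and at 12 h the factors were 12.3 and 9.51. On the log2(CPM + 1) scale the LPS difference of *Tgfbr1* was the largest lower one among the members with either scaling. It was -3.94 ± 0.12 at 8 h (median of ratios, -3.18) and -3.32 ± 0.12 at 12 h (-2.49). Wt minus *Treml4*-/- was -0.83 ± 0.17 at M1-8 h and -0.48 ± 0.17 at M1-12 h, against -0.15 ± 0.17 at M0. Without *Treml4*-/- M1-8 h replicate 1 the difference at M1-8 h was -1.11.

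*Tgfbr2* (chromosome 9, 116084293 to 116175360, minus strand) had 69.1 and 65.5 CPM in wt and 60.4 and 60.2 CPM in *Treml4*-/- cells at M0. At M1-8 h it had 13.8 and 14.6 CPM in wt and 14.4 and 13.4 CPM in *Treml4*-/- cells, and at M1-12 h 26.0 and 21.6 CPM in wt and 28.5 and 27.9 CPM in *Treml4*-/- cells. The 3 times did not overlap with each other, and the genotypes overlapped at M1-8 h. Its LPS difference was -2.10 ± 0.07 at 8 h (median of ratios, -1.33) and -1.27 ± 0.07 at 12 h (-0.44), and from 8 h to 12 h it differed by 0.83 ± 0.07 (0.89). The corresponding difference from 8 h to 12 h for *Tgfbr1* was 0.63 ± 0.12 (median of ratios, 0.68).

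*Smad3* (chromosome 9, 63646767 to 63757994, minus strand) was low throughout and returned furthest at 12 h. It had 4.05 and 4.47 CPM in wt and 3.24 and 3.27 CPM in *Treml4*-/- cells at M0. It had, at M1-8 h, 0.404 and 0.316 CPM in wt and 0.188 and 0.201 CPM in *Treml4*-/- cells, and at M1-12 h 2.53 and 1.95 CPM in wt and 2.81 and 2.85 CPM in *Treml4*-/- cells. The genotypes did not overlap at any time, with wt higher at M0 and M1-8 h and *Treml4*-/- higher at M1-12 h. Wt minus *Treml4*-/- was 0.30 ± 0.11 at M0, and it was 0.19 ± 0.11 (8 h) and -0.25 ± 0.11 (12 h) after LPS, each short of the DEG thresholds. The LPS difference of *Smad3* was -1.89 ± 0.08 at 8 h (median of ratios, -1.39). The pseudocount of 1 CPM understates it, since the M1-8 h levels were under 1 CPM. The M0 mean was 11.8 times the M1-8 h mean in wt and 16.7 times in *Treml4*-/- cells, against 23.4 and 13.1 times for *Tgfbr1*. At 12 h the LPS difference of *Smad3* was -0.43 ± 0.08 on CPM and 0.20 with median of ratios, so its sign depended on the scaling. From 8 h to 12 h *Smad3* differed by 1.46 ± 0.08 (median of ratios, 1.60), the largest such value among the members.

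*Smad7*, the inhibitory Smad of the TGF-beta receptor, had 9.49 and 8.16 CPM in wt and 7.13 and 7.52 CPM in *Treml4*-/- cells at M0. After 8 h of LPS it had 0.989 and 0.687 CPM in wt and 1.28 and 1.35 CPM in *Treml4*-/- cells, and at M1-12 h 1.84 and 1.31 CPM in wt and 1.83 and 1.72 CPM in *Treml4*-/- cells. Wt was the higher genotype at M0 and the lower one at M1-8 h, in both cases without overlap, and the genotypes overlapped at M1-12 h. The difference between the LPS responses at 8 h (wt minus *Treml4*-/-) was -0.58 ± 0.19. The LPS difference of *Smad7* was -2.13 ± 0.10 at 8 h (median of ratios, -1.51) and -1.76 ± 0.10 at 12 h (-1.08).

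*Skil*, the Smad repressor SnoN (chromosome 3, 31095058 to 31122577, plus strand), went the other way from *Smad7* at 8 h. It had 127 and 108 CPM in wt and 111 and 124 CPM in *Treml4*-/- cells at M0. The M1-8 h libraries had 168 and 188 CPM in wt and 197 and 251 CPM in *Treml4*-/- cells, and at M1-12 h 96.2 and 108 CPM in wt and 107 and 97.9 CPM in *Treml4*-/- cells. All M1-8 h libraries were above all others, and the M0 and M1-12 h libraries overlapped. Its LPS difference was 0.76 ± 0.09 at 8 h (median of ratios, 1.55). At 12 h it was -0.20 ± 0.09 on CPM and 0.65 with median of ratios, so the sign depended on the scaling. From 8 h to 12 h the difference was -0.95 ± 0.09 (median of ratios, -0.90).

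*Tgfbi*, which encodes a secreted matrix protein (chromosome 13, 56609523 to 56639562, plus strand), showed the widest gaps between replicates. It had 820 and 901 CPM in wt and 991 and 987 CPM in *Treml4*-/- cells at M0. At M1-8 h it had 408 and 244 CPM in wt and 555 and 455 CPM in *Treml4*-/- cells, and at M1-12 h 512 and 261 CPM in wt and 805 and 686 CPM in *Treml4*-/- cells. Wt was below *Treml4*-/- without overlap at each time, and replicate 2 was the lower wt library at both LPS times. Wt minus *Treml4*-/- was -0.20 ± 0.28 at M0, and after LPS it was -0.67 ± 0.28 (8 h) and -1.02 ± 0.28 (12 h). None of these passed the DEG thresholds, and without wt M1-12 h replicate 1 the last value was -1.51. The LPS difference was -1.21 ± 0.20 at 8 h (median of ratios, -0.41) and -0.82 ± 0.20 at 12 h (0.03), so that its sign at 12 h depended on the scaling.

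Across the members, 1 of 10 was a DEG between genotypes at M0, where 0.0993% of all genes tested were. The same gene, *Gdf3*, was the member called at M1-8 h (1 of 10, against 0.0910% of all genes) and at M1-12 h (1 of 10, against 0.132%). These contrasts belong to the values with which the members were proposed, so nothing is read from the counts. On CPM, libraries of the genotypes did not overlap for 6 of the 10 members at M0, and after LPS for 8 (8 h) and 6 (12 h), where 28.8%, 51.9% and 43.1% of all genes did not overlap. At M0 this includes *Inhba*, whose reads (1 and 1 against 1 and 3) differ by library size alone in 3 of the 4 libraries, so 5 members were apart beyond that. The median log2 difference of the members was 0.00 at M0 and -0.22 at either LPS time, against -0.03, -0.07 and -0.05 over all genes tested at the 3 times in turn. For the difference between the LPS responses of the genotypes, 0 of 10 members were called at 8 h or at 12 h by limma, against 0.00827% of all genes at each time, and voom also called 0.

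**Figure D2:**
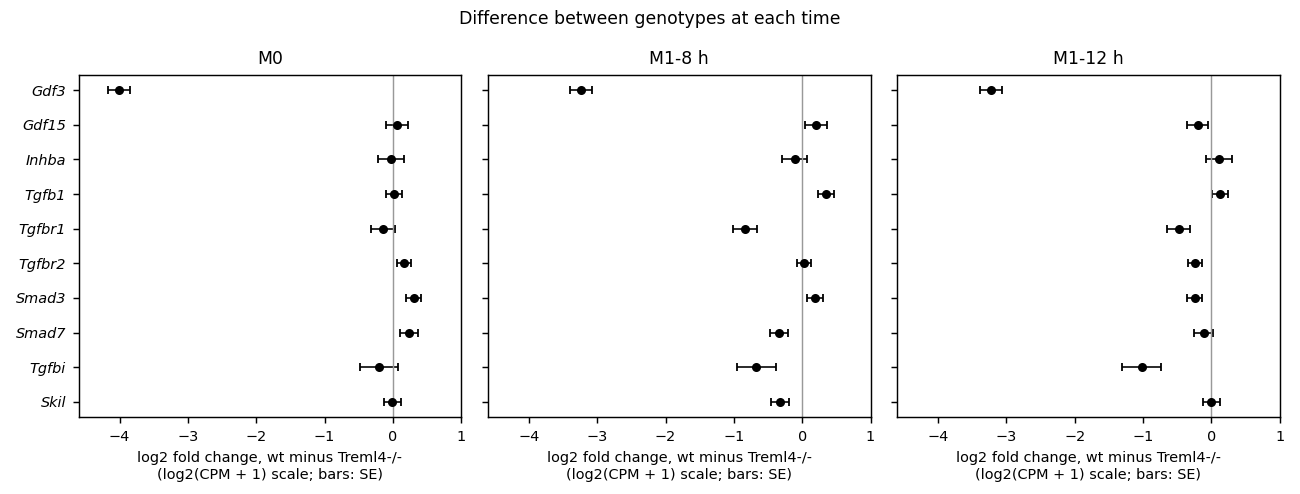
Log2 fold change (wt minus *Treml4*-/-, log2(CPM + 1) scale) of the 10 genes at the 3 times (M0, M1-8 h, M1-12 h), with SE from limma as bars and 2 libraries per condition. *Gdf3* lies between -4.01 and -3.23, *Tgfbr1* and *Tgfbi* reach -0.83 and -1.02, and the other genes lie between -0.34 and 0.35.

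After LPS, 10 of 10 members were called at 8 h on CPM (2 higher and 8 lower), where 76.9% of all genes were (17.1% higher and 59.8% lower), and 9 of 10 with median of ratios, where 62.3% were. The members were proposed with these contrasts known and *Inhba* was tested through its LPS libraries alone, so nothing is read from these counts either. At 12 h, 8 of 10 were called on CPM, 1 higher and 7 lower (76.5% of all genes, 16.3% higher and 60.3% lower), and 6 of 10 with median of ratios (65.1%). The median member stood at -1.72 at 8 h and -1.14 at 12 h on CPM, against -0.72 and -0.76 for all genes. With median of ratios it stood at -1.06 and -0.37, against -0.04 at both times. Between 8 h and 12 h, 5 of 10 members were called on either scaling (32.1% and 32.5% of all genes). *Gdf15*, *Tgfbr1*, *Tgfbr2* and *Smad3* were the higher ones at 12 h (13.5% of all genes) and *Skil* the lower one (18.7%). M0 and LPS libraries did not overlap for 9 of 10 members at 8 h and 8 of 10 at 12 h, where 83.3% and 86.5% of all genes did not overlap.

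**Figure D3:**
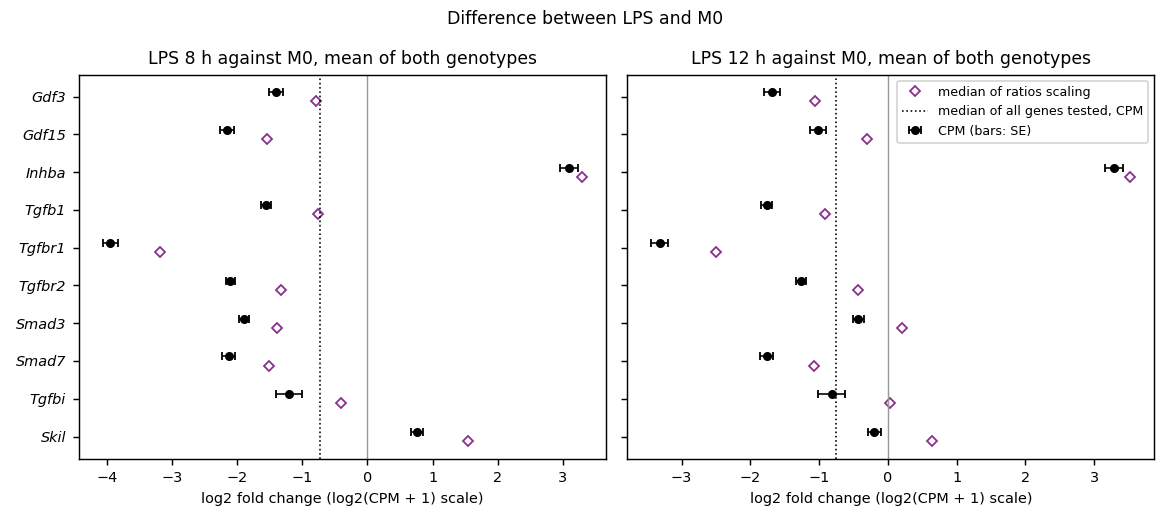
Log2 fold change of LPS against M0, as the mean of both genotypes, for the 10 genes at 8 h (left) and 12 h (right), with CPM values as dots with SE bars, median of ratios values as diamonds and the median of all genes on CPM as a dotted line. *Inhba* stands at 3.09 and 3.29 on CPM, *Tgfbr1* at -3.94 and -3.32, and *Smad3*, *Tgfbi* and *Skil* change sign with the scaling at 12 h.

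Levels of different members were compared as CPM per kb of exon sequence. In wt cells at M0, *Tgfbi* came first at 228 CPM per kb, followed by *Tgfb1* at 66.7, *Tgfbr1* at 17.2 and *Skil* at 12.1, and *Gdf3* was eighth at 0.964. In *Treml4*-/- cells at M0, *Gdf3* was the third member at 21.8 CPM per kb, above *Tgfbr1* at 19.1. At M1-8 h in wt cells *Tgfbr1* had 0.737 CPM per kb and stood below *Inhba*, which had 1.18. *Tgfbi* and *Tgfb1* kept the first and second place in 5 of the 6 conditions, and at M1-8 h in *Treml4*-/- cells *Skil* (23.1 CPM per kb) stood above *Tgfb1* (19.7).

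The reference table of promoters (RefSeq, GRCm38.p6, 250 bases before to 50 after a gene start) held 7 of the 10 members and no entry matched for *Gdf3*, *Smad7* and *Skil*. The windows of *Inhba* and *Tgfbr1*, the members with the highest and the lowest log2 fold change after LPS, are shown first, and that of *Tgfbi*, which held the most motif matches, last. Capitals mark matches on either strand to CAGAC, the core of the Smad binding element, and to the core of the interferon-stimulated response element (ISRE). The windows are chr13:16011601-16011900, chr4:47352972-47353271 and chr13:56609336-56609635, all on the plus strand.
Inhba: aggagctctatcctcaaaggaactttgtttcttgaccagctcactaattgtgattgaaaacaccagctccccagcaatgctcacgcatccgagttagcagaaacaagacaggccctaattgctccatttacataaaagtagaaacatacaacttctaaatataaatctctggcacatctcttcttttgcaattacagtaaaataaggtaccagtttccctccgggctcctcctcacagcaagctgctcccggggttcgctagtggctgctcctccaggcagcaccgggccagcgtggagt
Tgfbr1: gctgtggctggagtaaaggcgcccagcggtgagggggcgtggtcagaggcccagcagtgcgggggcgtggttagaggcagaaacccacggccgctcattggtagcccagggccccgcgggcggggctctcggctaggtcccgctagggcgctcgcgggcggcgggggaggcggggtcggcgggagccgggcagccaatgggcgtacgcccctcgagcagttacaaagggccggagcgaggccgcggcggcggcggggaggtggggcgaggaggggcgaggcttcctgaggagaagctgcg
Tgfbi: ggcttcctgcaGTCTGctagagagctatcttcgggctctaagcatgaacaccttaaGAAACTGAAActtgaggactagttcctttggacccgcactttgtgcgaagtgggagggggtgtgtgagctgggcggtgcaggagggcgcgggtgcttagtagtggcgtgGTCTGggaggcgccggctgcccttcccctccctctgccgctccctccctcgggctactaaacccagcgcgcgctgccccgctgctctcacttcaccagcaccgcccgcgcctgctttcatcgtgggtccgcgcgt

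The *Inhba* window was 47.7% G and C (percentile 30.8 of 32851 promoters), that of *Tgfbr1* 74.7% (percentile 95.8) and that of *Tgfbi* 63.3% (percentile 79.1). CAGAC was in 49.6% of all 32851 promoters and in 3 of the 7 members. It was found once in *Gdf15*, once in *Tgfbr2* and at 239 and 85 bases before the RefSeq start of *Tgfbi*. That start lies downstream of the GENCODE gene start of *Tgfbi* given above. The ISRE core was in 3.44% of all promoters and, among the members, 194 bases before the RefSeq start of *Tgfbi*. The AP-1 site TGANTCA (7.81% of all promoters), the cyclic AMP response element TGACGTCA (1.79%) and the kappaB site (4.51%) had no match in the 7 windows. No matches overlapped, and a match is a description of the letters and not of a bound site.

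The wider pathway was read from a list of 99 other genes, grouped by role, of which 46 passed the filter on low values and 20 had no read in any library. Of the 46, *Tgfb3*, *Bmp10*, *Bmpr1a*, *Fst*, *Ltbp1* and *Itgb8* passed through their LPS libraries alone and *Acvr2b* through its M0 libraries alone, so the counts below do not describe the whole list, and for these 7 genes LPS differences are given as values without a p. At 8 h limma called 36 of 46 on CPM (15 higher and 21 lower), and at 12 h 33 of 46 (10 higher and 23 lower), where 76.9% and 76.5% of all genes were called. With median of ratios the split was 23 higher and 11 lower at 8 h and 19 higher and 13 lower at 12 h. In both scalings 15 rose and 11 fell at 8 h, and 10 rose and 13 fell at 12 h, and these are the changes described. From 8 h to 12 h, 3 rose and 17 fell in both scalings, where 32.1% of all genes were called in either direction on CPM. The median log2 fold change of the 46 was -0.26 at 8 h and -0.48 at 12 h, where that of all genes was -0.72 and -0.76. Among the genes that rose in both scalings, some had passed the filter through LPS libraries alone. These were *Bmp10*, *Fst*, *Ltbp1* and *Itgb8* at both times, and also *Tgfb3* and *Bmpr1a* at 12 h. The filter favours a rise in such genes, so nothing is read from these counts or medians.

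**Figure D4:**
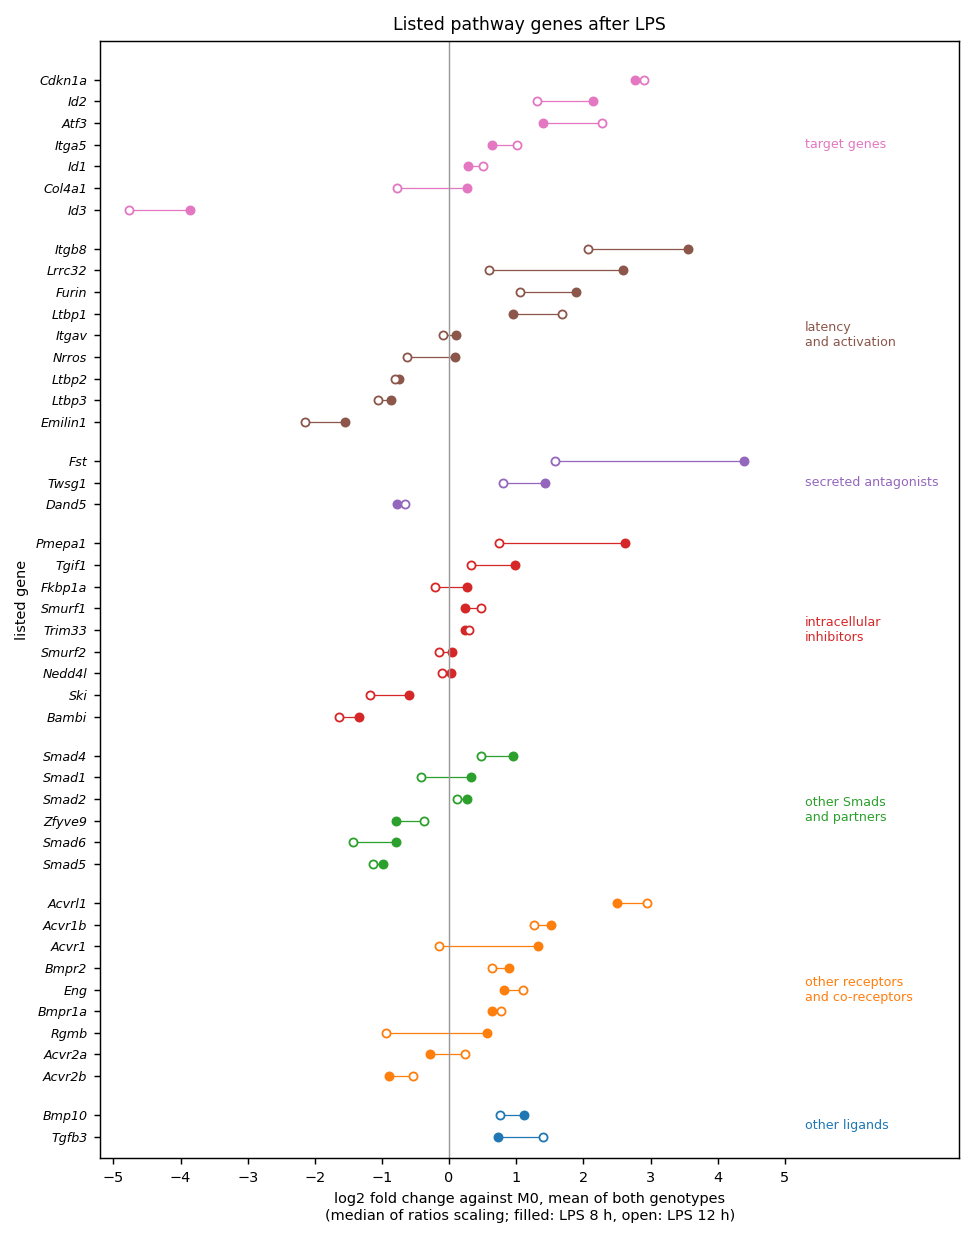
Log2 fold change of LPS against M0 (mean of both genotypes, median of ratios scaling) of tested pathway genes that are not among the 10, grouped by role, with 8 h as filled and 12 h as open circles. *Id3* (-3.86 and -4.77) is the lowest, and *Fst* moves from 4.39 at 8 h to 1.58 at 12 h.

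Of 29 other ligands, 2 were tested. *Tgfb3*, another TGF-beta isoform, was at 0.806 to 0.926 CPM at M0 and at 1.73 to 3.66 CPM at 12 h (log2 difference 0.96 ± 0.15, median of ratios 1.39). *Bmp10* had no read at M0 and 221 reads at M1-8 h and 121 at M1-12 h, at least 69.8-fold and 39.8-fold higher than a floor of 3 reads over the 4 M0 libraries.

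Of 9 other receptors and co-receptors tested, 3 rose and 2 fell at 8 h on CPM, where 17.1% and 59.8% of all genes did. With median of ratios 7 rose and 1 fell, where 3753 and 3778 of the 12086 genes did. *Bmpr1a* passed the filter through LPS libraries alone and *Acvr2b* through M0 libraries alone, so nothing is read from these counts. *Acvrl1*, the type I receptor ALK1, had 51.7 to 64.6 CPM at M0, 193 to 211 CPM at M1-8 h and 240 to 280 CPM at M1-12 h. Its LPS log2 fold changes were 1.71 ± 0.08 (median of ratios 2.5, limma adjusted p = 1.29e-09) and 2.11 ± 0.08 (median of ratios 2.95, limma adjusted p = 2.37e-10). So *Acvrl1* was higher after LPS, while *Tgfbr1*, also a type I receptor, was lower. *Acvr1*, an activin and BMP type I receptor, went from 26.4 to 28.6 CPM at M0 to 36.9 to 43.7 CPM at M1-8 h and 11.9 to 15.2 CPM at M1-12 h. From 8 h to 12 h it fell by 1.51 on the log2 scale (median of ratios -1.47, limma adjusted p = 6.66e-08). *Rgmb*, a BMP co-receptor, fell by 1.52 (median of ratios -1.51, limma adjusted p = 1.37e-07).

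Among 6 other Smads and partners, none rose on CPM at 8 h or 12 h, where 17.1% and 16.3% of all genes did. *Smad5* and *Smad6* fell at both times in both scalings. *Smad5*, which carries BMP signals, went from 17.5 to 22.4 CPM at M0 to 4.24 to 5.68 CPM at M1-8 h (-1.72 ± 0.12, median of ratios -0.99, limma adjusted p = 4.85e-08). *Smad6*, the inhibitory Smad of BMP receptors, went from 27.6 to 36.1 CPM to 9.09 to 11.3 CPM and then to 5.10 to 6.29 CPM at M1-12 h (-2.23 ± 0.08 against M0, median of ratios -1.44, limma adjusted p = 2.89e-10). Both inhibitory Smads, *Smad6* and the member *Smad7*, were therefore lower after LPS.

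Of 9 intracellular inhibitors tested, 1 rose and 7 fell at 8 h on CPM, where 17.1% and 59.8% of all genes did. With median of ratios 2 rose and 2 fell, where 3753 and 3778 of the 12086 genes did. *Bambi*, a pseudoreceptor that blocks TGF-beta receptors, went from 6.40 to 7.41 CPM at M0 to 0.714 to 1.80 CPM at M1-8 h (-1.96 ± 0.13, median of ratios -1.34, limma adjusted p = 4.58e-08). *Ski*, the close relative of *Skil*, fell at 12 h by 2.02 on CPM (limma adjusted p = 8.58e-11) and by 1.18 with median of ratios. *Pmepa1*, a transmembrane inhibitor of Smad phosphorylation, rose at 8 h (2.08 ± 0.12, median of ratios 2.62, limma adjusted p = 1.12e-08) from 1.02 to 2.51 CPM to 8.28 to 12.4 CPM. At M1-12 h it was back at 1.91 to 2.56 CPM. *Pmepa1* and *Skil* shared this course, with their highest libraries at 8 h.

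Among 3 secreted antagonists tested, *Fst*, which encodes the activin-binding protein follistatin, had 1 read in the 4 M0 libraries together. It had 16.6 and 26.3 CPM in wt and 14.5 CPM in each of the *Treml4*-/- replicates at M1-8 h, and 1.34 and 2.70 CPM in wt and 1.27 and 1.60 CPM in *Treml4*-/- cells at M1-12 h. The 3877 reads at M1-8 h are 3674 times the M0 level per read counted (95% counting interval 659 to 145166), and the 359 reads at M1-12 h are 354 times (63.1 to 14021). Between the LPS times the log2 difference of *Fst* was -2.78 (median of ratios -2.81), whereas *Inhba*, whose product follistatin binds, differed by 0.19 ± 0.13.

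Among 9 genes of latency and activation, 4 rose and 5 fell at 8 h on CPM, where 17.1% and 59.8% of all genes did. With median of ratios 4 rose and 3 fell, where 3753 and 3778 of the 12086 genes did. Of those that rose, *Ltbp1* and *Itgb8* passed the filter through LPS libraries alone, so nothing is read from these counts. *Itgb8*, an integrin subunit that activates latent TGF-beta, went from 0.285 to 0.511 CPM at M0 to 6.88 to 17.1 CPM at M1-8 h (log2 difference 3.24 ± 0.26, median of ratios 3.56) and 2.46 to 5.62 CPM at M1-12 h. *Lrrc32* (GARP), which holds latent TGF-beta on the cell surface, had 0.598 to 1.71 CPM at M0. It had, at M1-8 h, 6.66 and 17.4 CPM in wt and 6.10 and 5.87 CPM in *Treml4*-/- cells (2.14 ± 0.27, median of ratios 2.59, limma adjusted p = 1.33e-05). *Emilin1*, which restrains the maturation of TGF-beta, and *Ltbp3*, a latent TGF-beta binding protein, had log2 fold changes of -2.34 (median of ratios -1.55, limma adjusted p = 1.15e-10) and -1.61 (median of ratios -0.86, limma adjusted p = 3.76e-08) at 8 h. *Ltbp1* was at 1.93 CPM in wt M0 replicate 1 and 0.183 to 0.256 CPM in the other M0 libraries, and without wt M0 replicate 2 its log2 difference at 8 h went from 0.66 (median of ratios 0.95) to 0.36.

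Among 8 target genes of the pathway, 4 rose and 2 fell at 8 h on CPM, where 17.1% and 59.8% of all genes did. With median of ratios 5 rose and 1 fell, where 3753 and 3778 of the 12086 genes did. *Id3*, a target of BMP signals, went from 202 to 219 CPM at M0 to 6.26 to 8.38 CPM at M1-8 h and 2.83 to 3.85 CPM at M1-12 h (-4.63 ± 0.10, median of ratios -3.86, limma adjusted p = 3.29e-12, and -5.57 ± 0.10, median of ratios -4.77, limma adjusted p = 9.86e-13). *Cdkn1a* (p21), an inhibitor of the cell cycle, rose by 1.97 ± 0.08 at 8 h (median of ratios 2.77, limma adjusted p = 3.79e-10). *Atf3*, a stress-induced transcription factor, rose further between 8 h and 12 h, by 0.83 ± 0.07 (median of ratios 0.88, limma adjusted p = 3.96e-06).

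**Figure D5:**
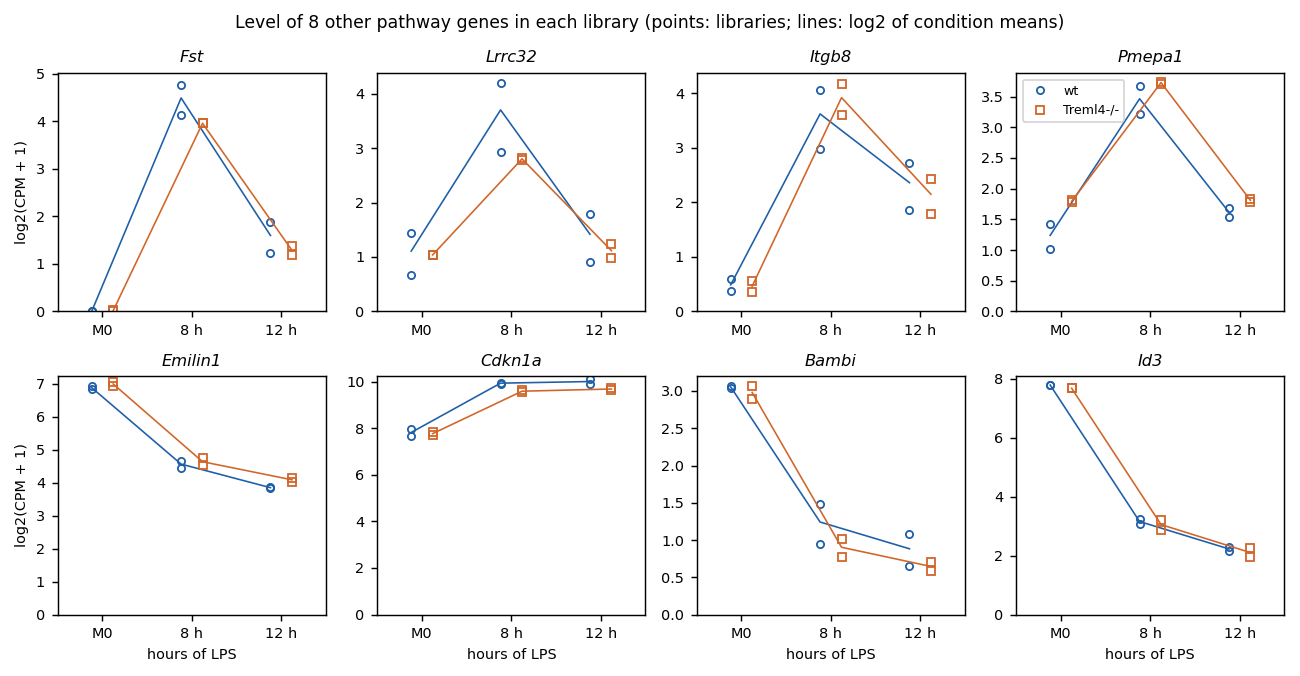
Level (log2(CPM + 1)) of 8 of the pathway genes at M0 and after 8 h and 12 h of LPS, with wt as circles, *Treml4*-/- as squares, 1 point per library and lines through the log2 of the condition means. *Fst*, *Lrrc32*, *Itgb8* and *Pmepa1* are highest at 8 h, *Cdkn1a* stays up at 12 h, and *Emilin1*, *Bambi* and *Id3* are low at both times.

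Between genotypes, 0 of the 46 genes were called by limma at any of the 3 times. An unadjusted p under 0.05 was reached by 4 at M0 and 6 at either LPS time, where 3.35%, 21.0% and 7.55% of all genes reached it at the 3 times in turn, and voom also called 0. The same held for the difference between the LPS responses, where 0 were called with 1 at 8 h and 4 at 12 h at an unadjusted p under 0.05 (6.67% and 3.82% of all genes). Wt replicate 2 was the higher wt library for *Lrrc32* and *Fst* after LPS, as it was the lower one for *Tgfbi*.

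For each ligand, the 3 tested genes with the most similar pattern were found by Pearson r of log2(CPM + 1) over the 12 libraries, which share the same LPS and genotype steps. The pattern of *Gdf3* was closest to that of *Pira2* (r = 0.992), an immunoglobulin-like receptor gene with 6.96 CPM in wt and 41.7 CPM in *Treml4*-/- cells at M0, followed by *1700112E06Rik* (0.928) and *Cryab* (0.922). *Pira2* has close paralogs between which reads could have been split. *Inhba* was closest to *Gm4841* (0.999), *Gbp7* (0.998) and *Gm4951* (0.998), of which *Gbp7* encodes an interferon-inducible GTPase and rose from 1.81 to 177 CPM in wt cells at 8 h as mean levels. *Tgfb1* was closest to *Ltbp3*, *Exosc4* and *Map1s* (each 0.997), and *Gdf15* to *Rhot2* (0.992), *Cxxc1* (0.989) and *2410131K14Rik* (0.988).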

How the data were processed

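RNA of 12 BMDM libraries (2 biological replicates of each genotype at each time) was sequenced after poly(A) selection. Per the labels and methods, the authors aligned reads with STAR to mm10 and counted them on genes, and the deposited values are log2 CPM with a prior of 0.25 reads, for 43280 genes. CPM had been assumed, so the deposited log2 values were turned back into CPM, and 100% of them came out as whole reads (tolerance 0.01). A linear model with 1 mean per condition and a variance trend was fitted by limma 3.58.1 (R 4.3.3) to log2(CPM + 1) of the 12086 genes that reached 1 CPM in 2 or more libraries. DEG differed at least 1.4-fold and had a Benjamini-Hochberg adjusted p below 0.05. On simulated data the test was checked to recover known changes. These data had the same preset relative spread for every gene and no shift between replicates, unlike the real libraries. The check therefore does not measure how reliable the calls here are. Within each condition the replicates were further apart than counting noise (chi-square per degree of freedom at least 12.0). Positions and exon lengths came from GENCODE M21 (GRCm38, the assembly of mm10), and promoters from RefSeq.

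The members and lists were chosen with earlier results of these data known. Members were named, and of the listed genes the called ones with the largest absolute log2 fold change, at most 6 in each direction per comparison, *Treml4*, marker genes, and for each ligand the 3 genes of most similar pattern. A listed target gene that enters the counts is not reported here. *Bmp10* and *Ltbp2* were named with their values known. The settings varied 1 at a time were a pseudocount of 0.1 CPM, no filter, a filter at 5 CPM, median of ratios scaling, quantile normalization, voom on the reads, the deposited log2 values, no fold threshold, no trend, a fit to the compared libraries alone, the replicate number or the culture as a block, and leaving out each library.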

Additional observations from a re-analysis of the deposited data

How the results depend on the processing

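With 2 replicates per condition, calls rest on a spread shared over conditions and genes, and 1 library can decide them (the cause was not tested). Leaving out each library in turn, the listed genes called numbered 0 to 1 between genotypes at M0 (*Ltbp2* without wt M0 replicate 1, *Ltbp1* without replicate 2) and 0 to 1 for the difference between responses at 12 h (*Ltbp2* without wt M0 replicate 1). For the member *Tgfbr1*, the genotype difference at M1-8 h moved from -0.83 to -1.11 without *Treml4*-/- M1-8 h replicate 1. For *Tgfbi*, that at M1-12 h moved from -1.02 to -1.51 without wt M1-12 h replicate 1. Among all genes, 12, 11 and 16 were called between genotypes at the 3 times in turn, with 7 to 220, 8 to 599 and 6 to 79 on leaving out a library and 7 to 16, 5 to 14 and 7 to 20 under the other settings. At 12 h of LPS, *Tgfbi* was 0.0289 with median of ratios scaling and *Gdf15* 0.012 with quantile normalization, both against lower values on CPM, since these scalings raise the typical gene. The other member differences that were called kept their direction, although 180 of 1882 values moved by more than the spread between replicates, and 1114 of 1123 values of the named listed genes stayed past the thresholds. With the replicate number as a block, the counts of members called were 1, 1 and 1 between genotypes and 10 and 8 after LPS, as without it, and listed genes called were also as without it. This block gives same-numbered wt and *Treml4*-/- cultures 1 common shift, although whether they were linked is not given. Across the other settings, 9 to 10 members were called at 8 h of LPS and 6 to 9 at 12 h. Same-numbered replicates of the genotypes did not deviate together at M0 (r = -0.26), with r = 0.30 at M1-8 h and 0.06 at M1-12 h. Within a genotype, the labels give the same replicate numbers at each time. In wt their deviations had r = 0.12 (M0 and 8 h), 0.06 (M0 and 12 h) and 0.41 (8 h and 12 h). In *Treml4*-/- cells r was 0.46, -0.20 and -0.27 in the same order. The erythroid and megakaryocyte markers summed to less in wt replicate 2 than in replicate 1 at each time (31.1 and 57.9 CPM at M0, 28.3 and 54.5 CPM at 8 h, 21.3 and 41.4 CPM at 12 h). In *Treml4*-/- cells replicates 1 and 2 had 56.4 and 56.8 CPM, 50.9 and 48.1 CPM, and 38.9 and 36.4 CPM at these times. The main fit took the libraries as unpaired. *Ltbp1*, *Tgfb3*, *Acvr1* and *Atf3* each lost a call under some setting. From 8 h to 12 h of LPS, 3885 of all genes were called, and 7291 with no minimum fold change. For the difference between responses, 1 gene was called at either time, with 1 to 3 (8 h) and 1 to 33 (12 h) on leaving out a library. Depth limits *Inhba* and *Fst* at M0, *Gdf3* in wt after LPS and *Smad3* at M1-8 h.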
